A study of Homo sapiens with 16 samples.

Results

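RAD51B, RAD18 and PTPRQ are 3 genes of 20046 protein-coding genes in the GENCODE annotation of hg38. They were chosen by the number of H3K27ac regions lost in their bodies upon inhibition of O-GlcNAc transferase (OGT). All regions centred in the genes or within 100 kb of either gene end were considered, which gave 40 of the 7130 listed regions. Of these 40 regions, 37 had lost H3K27ac and 3 had gained it. The share of lost regions was therefore 92.5%, compared with 49.2% over all listed regions, but nothing is read from this difference because the lost count selected the genes.

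H3K27ac is the acetylation of histone H3 on lysine 27, a mark of active promoters and enhancers. It was measured by ChIP-seq in LX-2, an established cell line from human hepatic stellate cells that behaves like activated myofibroblasts. One arm of 4 libraries received the DMSO vehicle (control), and the other arm of 4 libraries received OSMI-1, an inhibitor of OGT, for 24 h at a concentration of 50 µM (OGTi). LX-2 being a single line, all libraries shared one genetic background, and the labels describe the 4 replicates of each arm as biological. The results of these 8 libraries were available as a list of 3507 lost regions and a list of 3623 gained regions, holding positions only. Neither signal, fold change, p-value, replicate value nor depth could be given for any region, and regions listed in neither file were not used here. Wide acetylated domains had been cut into bins that are often 2000 bp wide, so that several abutting regions can belong to one domain. Among stellate cell markers, lost regions lay at the transcription start sites (TSSs) of COL1A1, COL1A2 and PDGFRB and in the body of ACTA2, whereas COL1A1 also had 1 gained region in its body and DES and LRAT had no listed region. These lists say nothing about marker expression.

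The host genes have separate known roles. RAD51B assists homologous recombination at broken DNA. RAD18 is a ubiquitin ligase that acts with RAD6 on the sliding clamp PCNA when replication forks stall. PTPRQ is a receptor-type phosphatase best known from the hair bundles of the inner ear. A long gene can also carry, within its introns, enhancers that act on other promoters nearby. The genes around the regions were therefore examined, keeping in mind that a distance does not link a region to a gene.

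Sequences from the regions with the most matches to CATTCC, the core of the TEAD recognition motif, are shown because TEAD factors relay YAP and TAZ signalling in myofibroblasts. They are plus-strand sequences of hg38 in which capitals mark the core, read as GGAATG where it lies on the minus strand, and none of the windows overlaps an annotated exon.
RAD51B lost region 1, chr14:68000020-68000219: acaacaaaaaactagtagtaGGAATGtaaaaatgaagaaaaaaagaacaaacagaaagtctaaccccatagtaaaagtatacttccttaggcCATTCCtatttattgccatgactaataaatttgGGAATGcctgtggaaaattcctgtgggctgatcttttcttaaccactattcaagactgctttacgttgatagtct
RAD51B gained region 2, chr14:68675336-68675535: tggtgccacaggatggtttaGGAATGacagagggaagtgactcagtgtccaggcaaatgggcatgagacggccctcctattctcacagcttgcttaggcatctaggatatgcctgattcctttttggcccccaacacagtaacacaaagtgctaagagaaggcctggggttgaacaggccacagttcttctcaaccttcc
RAD18 lost region 5, chr3:8846308-8846507: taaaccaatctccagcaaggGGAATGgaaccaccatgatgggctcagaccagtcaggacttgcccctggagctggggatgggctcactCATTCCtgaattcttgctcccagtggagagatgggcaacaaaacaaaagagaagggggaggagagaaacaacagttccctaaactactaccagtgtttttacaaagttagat
PTPRQ lost region 2, chr12:80509447-80509646: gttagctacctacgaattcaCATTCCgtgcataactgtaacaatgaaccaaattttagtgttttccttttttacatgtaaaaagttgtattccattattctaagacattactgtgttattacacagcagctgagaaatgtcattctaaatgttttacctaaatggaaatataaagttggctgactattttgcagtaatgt
The window of RAD51B held 3 of the 8 matches of its region. That of RAD18 held 2 of 4, that of PTPRQ 1 of 3 and that of the gained region 1 of 2. Regions are numbered here from left to right along each chromosome, separately for lost and gained regions.

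Having at least 10 lost regions in the body was a property of 7 protein-coding genes (0.0349% of 20046). RAD51B had 14 lost regions, and RAD18 and PTPRQ stood just inside this limit with 10 each. COL4A2 and VAC14 stood just outside it with 9 lost regions each. The counts referred to bodies of very different length. RAD51B spanned 910 kb and had 1.54 lost regions per 100 kb, PTPRQ spanned 278 kb and had 3.60, and RAD18 spanned 188 kb and had 5.31. Lost regions covered 2.60% of the body of RAD51B, 6.10% of that of PTPRQ and 11.8% of that of RAD18. Thus RAD51B had the most lost regions of the 3 genes but the sparsest coverage.

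**Figure D1:**
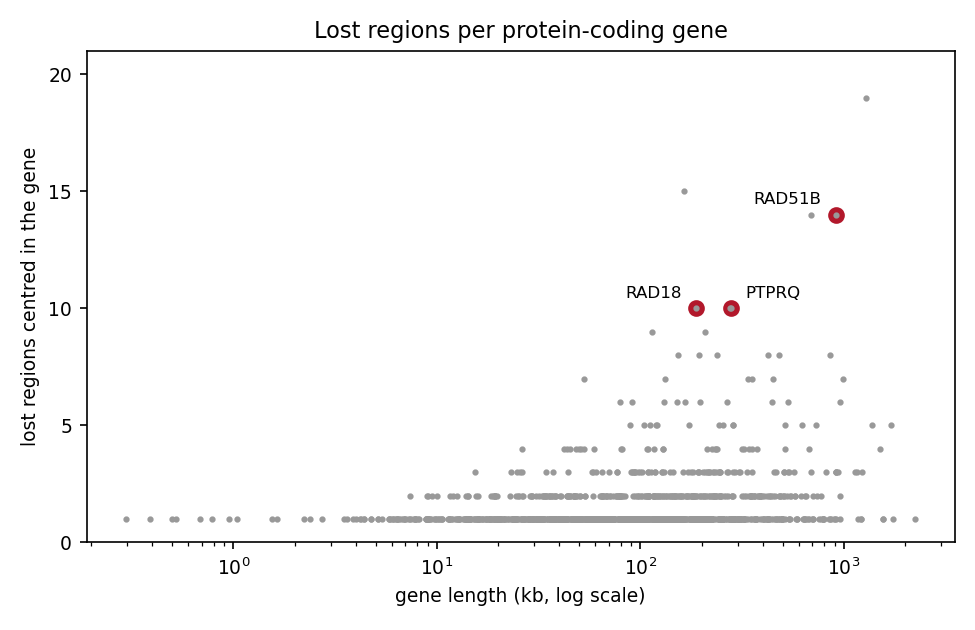
Number of lost regions centred in each protein-coding gene (y axis) against gene length in kb (x axis, log scale), for genes with at least 1 lost region. Grey points are single genes and red circles are the 3 hosts, with 14 lost regions in RAD51B and 10 each in RAD18 and PTPRQ.

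A gene body counted from the outermost transcript ends can be much longer than the reference transcript, so regions were placed in the MANE transcripts too. Of the 37 lost regions, 25 lay within introns of these transcripts, 2 overlapped an exon and 10 lay outside the transcripts. Not one of the 37 lost regions lay within 2500 bp of the TSS of its own host, the 5′ end of the gene.

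**Figure D2:**
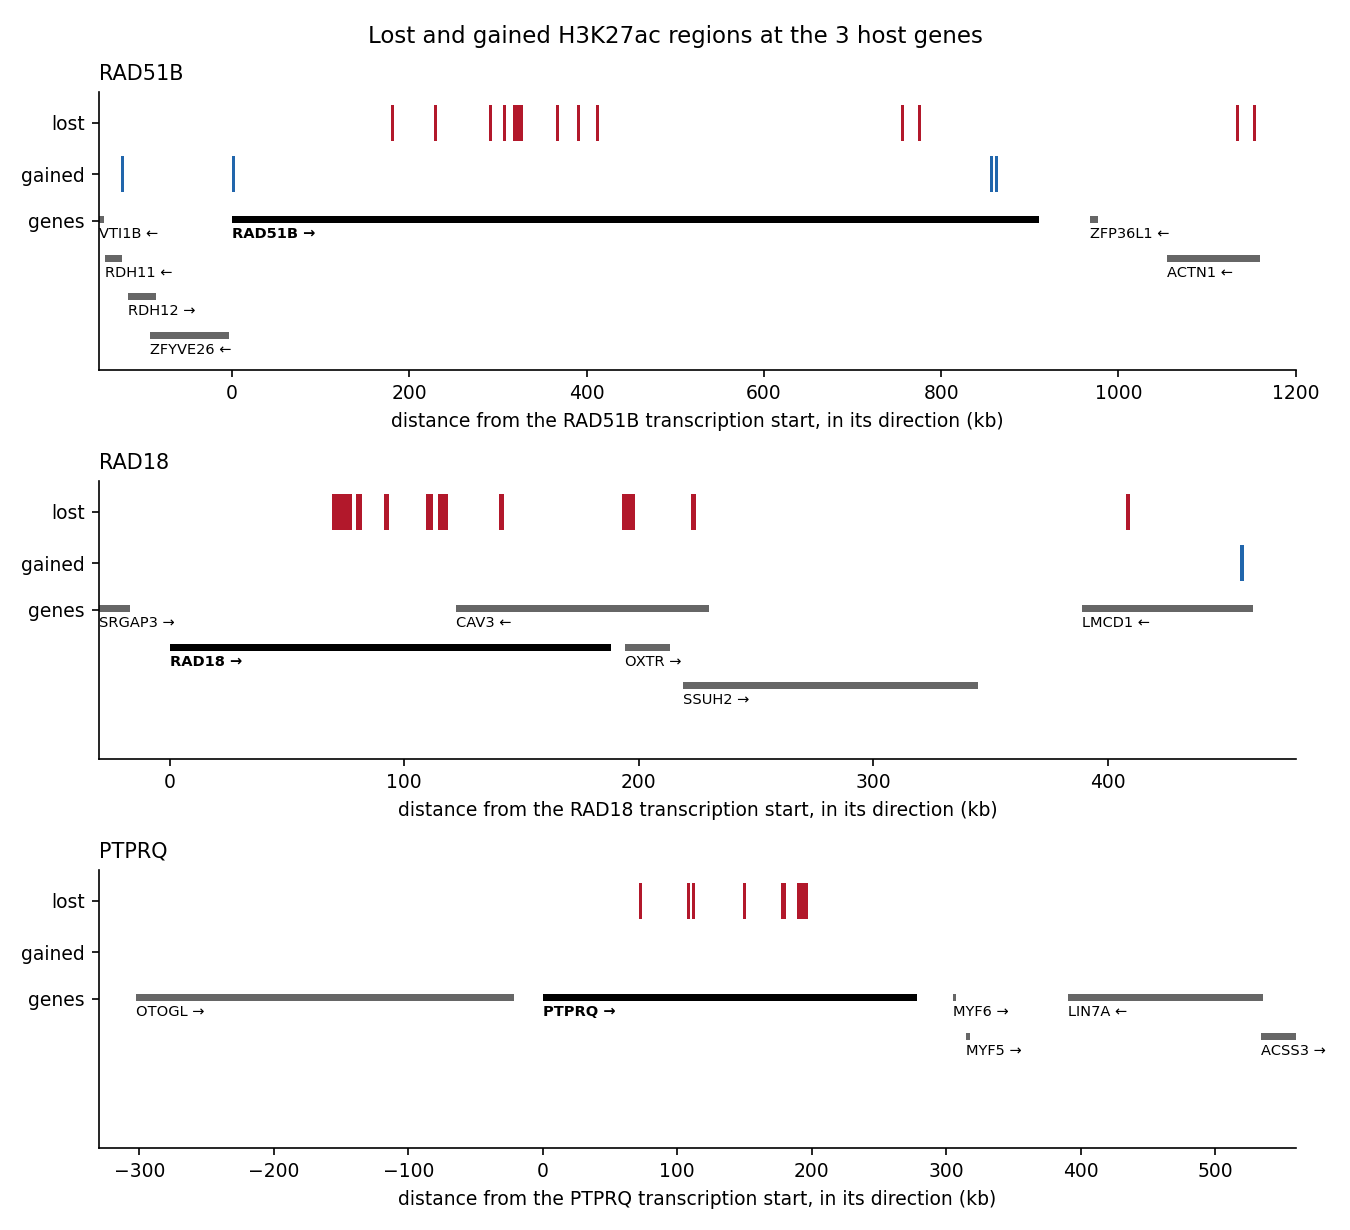
Maps of the RAD51B, RAD18 and PTPRQ loci, with distance in kb from the host TSS in the direction of its transcription on the x axis. Red and blue marks are lost and gained regions, drawn with a minimum width, black and grey bars are host and neighbouring protein-coding genes, and arrows give the direction of transcription. Lost regions lie inside RAD51B and PTPRQ away from their TSSs, while at RAD18 they continue past the end of the gene to the start of OXTR.

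RAD51B (ENSG00000182185.19, chr14:67819779-68730218, plus strand) combined a gained start with lost introns. Gained region 1 (chr14:67819717-67821132) covered the TSS, and the promoter of RAD51B was thus among the 6.39% of protein-coding genes with a gained region within 2500 bp of the TSS. Over all such genes, 2.02% had a lost region there. Of the 46 genes with at least 5 lost regions, 41 had no listed region at the TSS, 3 had a lost one and 2, including RAD51B, a gained one.

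The first 12 lost regions of RAD51B (chr14:67998914-68232511) all fell in intron 7 of the MANE transcript (ENST00000471583.6, 11 exons). This single intron was 405 kb long and made up 61.5% of the transcript span. Lost region 1 (chr14:67998914-68001003), 179 kb from the gene TSS, contained the annotated start of a further RAD51B transcript without a defined coding sequence (ENST00000557045.5, position 68000279). The sequence shown above lies just before that start. Lost regions 2 and 3 were narrow (417 and 538 bp), and lost region 4 overlapped an exon of the lncRNA ENSG00000258837. Lost regions 5 to 9 abutted one another and formed a block of 10.1 kb (chr14:68136797-68146869), the third widest of 3057 blocks made by joining abutting lost regions. The genes were chosen by their lost counts, so nothing is read from this rank. Lost regions 10 to 12 followed between 366 and 410 kb from the TSS.

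Lost regions 13 (chr14:68574468-68577350) and 14 (chr14:68593662-68594865) lay 755 and 774 kb from the TSS of RAD51B, beyond the end of the MANE transcript at position 68478093. They were inside the gene only through transcripts that end beyond the MANE transcript. Their nearest protein-coding TSS was that of ZFP36L1, an RNA-binding protein that promotes decay of AU-rich mRNAs, at 219 and 201 kb. Gained regions 2 (chr14:68674606-68676431) and 3 (chr14:68680948-68682905) lay further in the same direction, 120 and 113 kb from the TSS of ZFP36L1. Lost and gained regions at this end of RAD51B thus did not mix, and 79.7 kb separated the last lost from the first of these gained regions. ZFP36L1 itself had no listed region in its body or at its TSS.

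RAD18 (ENSG00000070950.10, chr3:8775402-8963773, minus strand) had no gained region in its body or flanks, and no listed region at its TSS. Its MANE transcript (ENST00000264926.7, 13 exons) covered 86.4 kb and held 5 lost regions. Of these, 3 fell in intron 12 and 1 in intron 11, and 1 overlapped exon 12. The other 5 lost regions of the body lay downstream of the MANE end. They belonged to RAD18 only through one long transcript of 4 exons (ENST00000427329.5, chr3:8775402-8902456).

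All 10 lost regions of the RAD18 body stood in one run of 73.3 kb, in which neighbouring centres were within 50 kb. Lost regions 10 to 13 abutted in a block of 8.50 kb (chr3:8886173-8894674), which ranked 11 of 3057 by width. Nothing is read from this rank either, since the lost count selected the gene. Lost regions 6 and 7, and again 9 and 10, were separated by exactly 2000 bp, a width equal to that of a bin. This spacing occurred between 22 pairs of lost regions over the whole list.

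The remaining 3 lost regions at this locus lay past the 3′ end of RAD18. Lost regions 2 (chr3:8765473-8768181) and 3 (chr3:8768182-8771053) abutted in a block of 5.58 kb at the start of OXTR, which encodes the oxytocin receptor, a G protein-coupled receptor. Lost region 3 contained the OXTR TSS at position 8769628, and lost region 2 lay 1.45 kb from it. Both also lay within CAV3 as annotated. Lost region 1 (chr3:8739449-8741692) lay within both SSUH2 and CAV3, 3.35 kb from the TSS of SSUH2 and 5.65 kb from that of CAV3, a muscle caveolin that shapes caveolae of the plasma membrane. Lost regions 4 to 7, although counted in RAD18, were nearer to the OXTR TSS (51.7 to 81.8 kb) than to the RAD18 TSS (109 to 141 kb). Lost regions 8 to 13 were nearer to the RAD18 TSS (69.1 to 91.5 kb).

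With the TSS taken as the 5′ end of the gene, OXTR was the only neighbour described below with a lost region within 2500 bp. Its promoter is therefore shown. The sequence comprises the 250 bases before the outermost of 3 OXTR starts in RefSeq (GRCh38.p14, minus strand), with CpG dinucleotides in capitals.
OXTR promoter, chr3:8769614-8769863: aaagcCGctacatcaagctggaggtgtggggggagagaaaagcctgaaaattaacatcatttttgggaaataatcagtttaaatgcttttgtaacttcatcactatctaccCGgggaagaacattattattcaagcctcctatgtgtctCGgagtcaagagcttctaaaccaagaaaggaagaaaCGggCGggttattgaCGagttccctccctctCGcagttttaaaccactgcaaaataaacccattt
This stretch had a GC content of 42.0% and 7 CpG dinucleotides. The stretches before the other OXTR starts were richer in GC (68.0% and 57.6%, with 25 and 8 CpG dinucleotides) and were covered by the lost regions of this locus too. None of the 8 motifs searched matched any of the 3 stretches. CATTCC was found in 11.9% of 35116 RefSeq promoters of this length.

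PTPRQ (ENSG00000139304.16, chr12:80402178-80680273, plus strand) had lost regions only in the body, and no gained region there or in its flanks. The nearest gained region was 430 kb from its lost regions, compared with 232 kb at RAD18. All 10 lost regions fell within the MANE transcript (ENST00000644991.3, 45 exons) and in one run of 125 kb. Lost region 1 (262 bp wide) was in intron 8, lost region 2 (chr12:80509407-80511144) overlapped exon 17 and lost region 3 was in intron 17. Lost regions 4 to 6 were in intron 25 and lost regions 7 to 10 in intron 26, an intron of only 16.6 kb.

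The regions of intron 26 (chr12:80591208-80599161) surrounded the start of an antisense lncRNA. Lost region 8 (chr12:80592269-80594268) contained the TSS of ENSG00000257429 at position 80593701, and all 4 regions lay within 2500 bp of it. A short PTPRQ transcript without a defined coding sequence started between lost regions 2 and 3 (ENST00000547485.1, position 80512642). Along the gene, the nearest protein-coding TSS changed from PTPRQ for lost regions 1 to 4 to MYF6 for lost regions 5 to 10. The distances of lost regions 5 to 10 were 108 to 127 kb to MYF6 and 177 to 194 kb to PTPRQ, or 135 to 152 kb to the start of its MANE transcript. MYF6 and the adjacent MYF5 encode transcription factors of skeletal muscle differentiation, and neither had a listed region in its body or at its TSS.

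**Figure D3:**
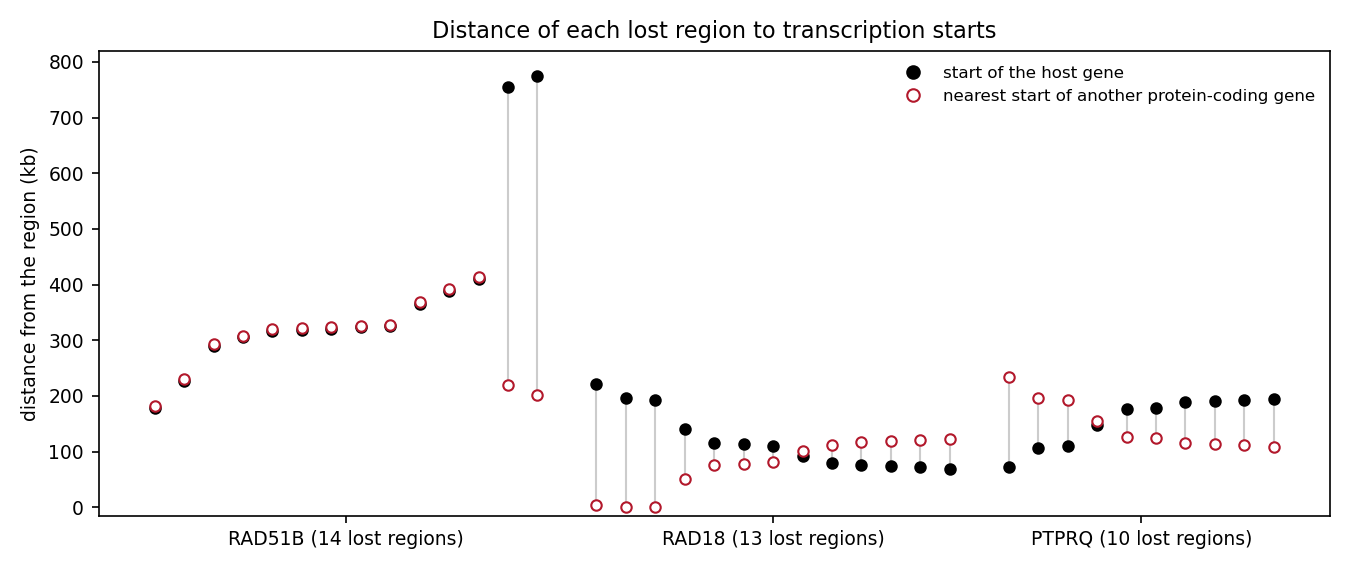
Distance in kb (y axis) of each of the 37 lost regions, in chromosomal order within each locus (x axis), to the TSS of its host (black) and to the nearest TSS of another protein-coding gene (open red). The TSSs of RAD51B and ZFYVE26 are close together and give almost equal distances, 7 lost regions at RAD18 are nearest to OXTR or SSUH2, and 6 at PTPRQ are nearest to MYF6.

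The lost regions were mostly far from any protein-coding TSS. Their median distance to the nearest one was 113 kb, compared with 51.6 kb over all lost regions and 21.6 kb over all gained regions. Over 100 kb from every protein-coding TSS lay 23 of 37 regions (62.2%), against 32.1% of all lost and 20.9% of all gained regions. Both full lists include regions at promoters, whereas the hosts were chosen by lost regions in their bodies. The other lost regions in long genes were not compared for this distance, so nothing is read from the difference. The 23 distant regions are given by locus. They comprised all 14 lost regions of RAD51B and 9 of 10 at PTPRQ, but 0 of 13 at RAD18. The annotated 5′ end of PTPRQ belongs to a short transcript without a defined coding sequence, and with the start of the MANE transcripts in its place 7 of 10 regions at PTPRQ were over 100 kb away, and 21 of 37 in all. The nearest TSS was that of the host for 12 regions at RAD51B, 6 at RAD18 and 4 at PTPRQ, and that of another gene for the other 15 regions. For lost regions 1 to 12 of RAD51B, a second gene was practically as close. ZFYVE26, which encodes spastizin, starts just upstream of RAD51B on the opposite strand, and its TSS was 182 kb from lost region 1, against 179 kb for RAD51B.

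In all, 22 other protein-coding genes had a TSS within 500 kb of these lost regions, namely 11 at RAD51B, 6 at RAD18 and 5 at PTPRQ. Of these neighbours, 6 held any listed region, being 2 at RAD51B, 4 at RAD18 and 0 at PTPRQ. For 3 of the 4 at RAD18 (OXTR, SSUH2 and CAV3), these were the lost regions of the locus itself, whose closeness made them neighbours. By direction, 1 neighbour at RAD51B and 4 at RAD18 held a lost region, and 1 at each of these loci held a gained one. In the whole annotation, 6.8% of protein-coding genes had a lost region and 11.1% a gained region in the body or within 2500 bp of the TSS. OXTR was the only neighbour with a lost region within 2500 bp of the TSS. RDH11, a retinol dehydrogenase, was the only one with a gained region within that distance (chr14:67694765-67695782), that TSS being 303 kb from the nearest lost region of RAD51B. RDH12, a retinol dehydrogenase of photoreceptors, had its TSS at 297 kb and no listed region in its body or within 2500 bp of its TSS. Within 10000 bp of the TSS, 4 neighbours had a lost region and 5 a gained one, RDH12 and ZFYVE26 among the latter. These neighbours did not all have separate regions. For ZFYVE26 it was the gained region at the RAD51B TSS. The gained region of RDH11 was also counted for RDH12 and for a further neighbour. For OXTR, SSUH2 and CAV3 the lost regions were those of the RAD18 locus itself. The share of all protein-coding genes at this distance was not computed, so nothing is read from these counts. At PTPRQ the third neighbour in order of distance, ACSS3, a mitochondrial acyl-CoA synthetase, had its TSS at 337 kb.

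Among the 22 neighbours, 3 were in the gene lists that the study took from earlier work, all of them in its list for fibrogenic myofibroblastic stellate cells. The share of all protein-coding genes in these lists was not computed, so nothing is read from this count. ACTN1, an actin-crosslinking alpha-actinin also found in the list for myofibroblast identity, had 2 lost regions in its body (chr14:68951982-68953632 and chr14:68971771-68972628), 25.8 and 6.81 kb from its TSS. The TSS of ACTN1 was 385 kb from lost region 14 of RAD51B. CAV3 had 4 lost regions in its body, all of them already counted at the RAD18 locus. The body of CAV3 was counted between its outermost annotated ends (108 kb), which enclose OXTR. Placement in MANE transcripts was examined for the hosts only. Lost region 1 lay 5.65 kb from the CAV3 TSS, lost regions 2 and 3 at the start of OXTR 31.7 and 34.4 kb, and lost region 4 87.5 kb. LMCD1, a LIM domain cofactor of transcription, had 1 lost region and 1 gained region in its body, and its TSS was 238 kb from the nearest lost region of the RAD18 locus.

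The base composition of the lost regions differed between the loci. The median GC content was 39.2% at RAD51B, 45.2% at RAD18 and 35.1% at PTPRQ, compared with 46.8% over all lost regions and 45.8% over the 1021 other lost regions in protein-coding genes of at least 100 kb. A GC content below 36.5%, the level under which 5% of all lost regions fell, was seen in 6 of 10 regions at PTPRQ, 3 of 14 at RAD51B and 0 of 13 at RAD18. Regions of one locus are not independent, and these counts were not tested. The 6 at PTPRQ included lost regions 8 and 9, which abutted, and lost region 10, which began 616 bp further on. The CpG observed/expected ratio had a median of 0.157 over the 37 regions, against 0.202 over all lost regions. All 14 regions of RAD51B were below this latter value. The highest ratio was 0.619, in the region that contained the OXTR TSS. The median width was 2000 bp, compared with 1905 bp over all lost regions.

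**Figure D4:**
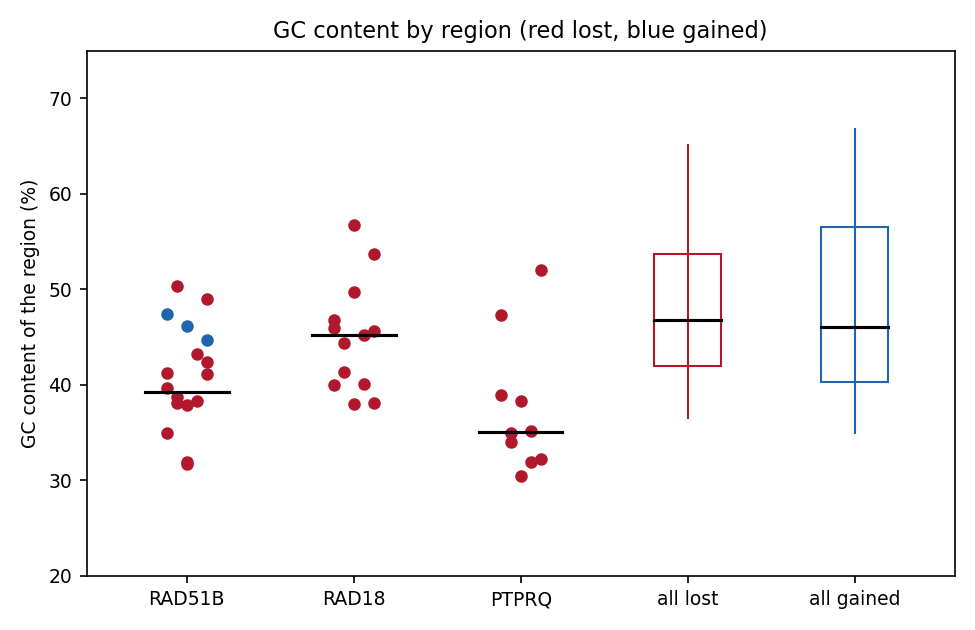
GC content in % (y axis) of each lost (red) and gained (blue) region at the 3 loci, with black bars at the medians of the lost regions (39.2%, 45.2% and 35.1%). Boxes show the quartiles and median, and lines the range from the 5th to the 95th percentile, of all 3507 lost and all 3623 gained regions.

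The regions were then searched for 8 transcription factor motifs on both strands. A match is only an occurrence of letters and shows no binding. The TEAD core CATTCC was present in 29 of the 37 lost regions (78.4%), compared with 73.5% of all lost regions, 74.7% of the other lost regions in long genes and 58.8% of all gained regions. The share at these genes was thus near that of the whole lost list. It was present in 11 of 14 lost regions at RAD51B, 12 of 13 at RAD18 and 6 of 10 at PTPRQ, and in all 3 gained regions. Per kb of sequence, the core matched 1.44 times at RAD51B, 0.868 times at RAD18 and 0.590 times at PTPRQ, against 0.862 in all lost and 0.625 in all gained regions. Within the RAD51B block of 5 abutting regions, the number of matches ranged from 0 in lost region 8 to 3 in lost regions 5 and 9.

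The order of the loci depended on how strictly the TEAD motif was defined. The long form, CATTCC preceded by A or G and followed by A or T, occurred in 9 of 14 lost regions at RAD51B and 4 of 10 at PTPRQ, but in 2 of 13 at RAD18. Over the 37 regions its share was 40.5%, against 42.9% of all lost and 27.5% of all gained regions. RAD18 therefore had the highest share of regions with the core and the lowest share with the long form. Such shares can rise with region width. The median width of the lost regions was 2244 bp at RAD18, 2000 bp at RAD51B and 1813 bp at PTPRQ. Per kb, the long form matched 0.591 times at RAD51B, 0.295 times at PTPRQ and 0.0668 times at RAD18. By this measure RAD51B was highest for both forms.

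The AP-1 motif, TGACTCA or TGAGTCA, matched in 13 of 37 regions (35.1%), with 6 at RAD51B, 2 at RAD18 and 5 at PTPRQ, compared with 42.6% of all lost and 39.6% of all gained regions. The SRF CArG box, bound by the serum response factor, matched in 2 of 37 (5.41%), against 14.7% of all lost regions. The RUNX motif TGTGGT was present in 24 of 37 regions (64.9%) and in 68.1% of all lost regions, with 3 of 10 at PTPRQ and 11 of 13 at RAD18. The C/EBP motif TTGCNNAA was also present in 24 of 37 regions, and in 55.2% of all lost regions. The SMAD motif GTCTAGAC and the ETS motif CCGGAAGT matched in 0 of 37 regions, and in only 1.25% and 1.34% of all lost regions. With 37 regions from 3 loci, which are not independent, these shares are descriptions and were not tested.

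**Figure D5:**
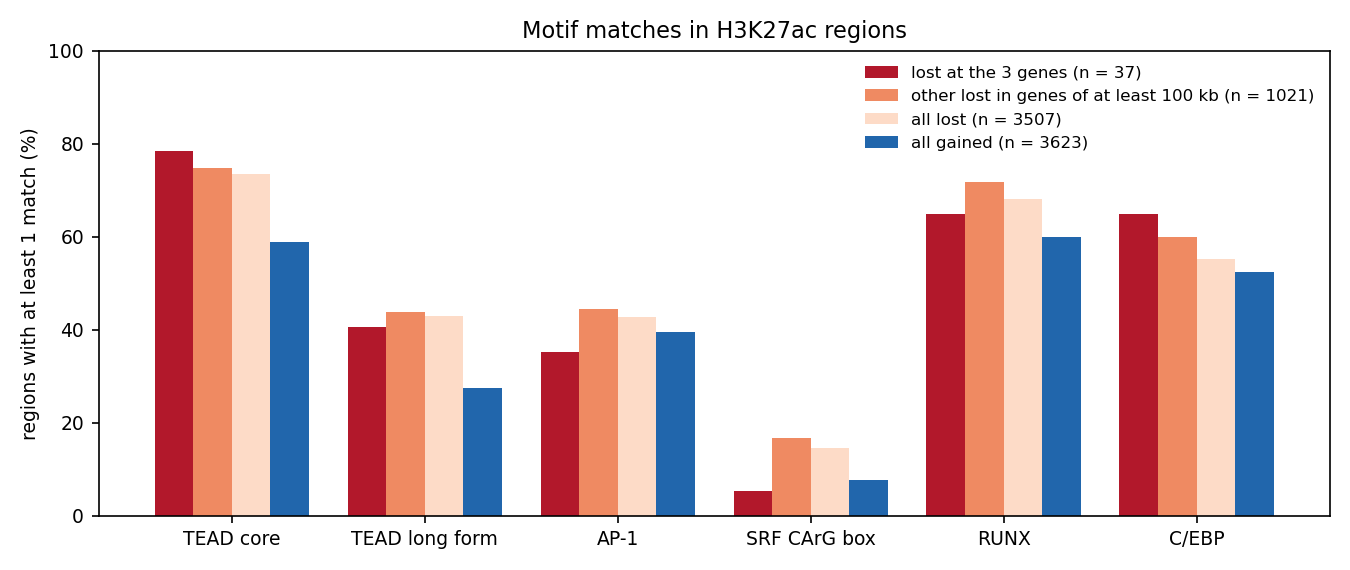
Share of regions in % (y axis) with at least 1 match to 6 of the motifs (x axis) in the 37 lost regions at the 3 genes, in 1021 other lost regions in protein-coding genes of at least 100 kb, in all lost and in all gained regions. The TEAD core is present in 78.4%, 74.7%, 73.5% and 58.8% of these sets.

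Finally, genes with functions related to those of RAD18 and PTPRQ were considered. They are set beside the shares over all protein-coding genes, 6.8% with a lost and 11.1% with a gained region. Of 16 genes of damage tolerance around RAD6 and RAD18, 12 had neither. SHPRH, a ubiquitin ligase for PCNA, and POLK, a translesion polymerase, had 1 lost region each, and UBE2B, one of the RAD6 enzymes, had a gained region at its TSS.

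Of 20 receptor-type tyrosine phosphatases, 15 had neither kind of region. PTPRC, which encodes the leukocyte phosphatase CD45, had 5 lost regions in its body, and PTPRM, a phosphatase of cell-cell contacts, had 1 lost and 1 gained region. PTPRR and PTPRS had 3 and 1 gained regions in their bodies. In these lists the other genes with lost regions numbered 2 of 15 and 2 of 19 once the host was set aside. The listed genes ranged from 11.7 kb (PCNA) to 2299 kb (PTPRD). The shares over all protein-coding genes were not matched for length, so nothing is read from these counts.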

How the data were processed

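H3K27ac ChIP-seq was performed by the authors on LX-2 cells, with 4 control and 4 OGTi libraries. Reads were aligned to hg38 with Chromap and peaks were called with MACS2 (2.1.1.20160309 in the submitters' processing notes, which also name deepTools 2.0) and compared between arms with MAnorm2. The deposited values used here are the start and end positions of 2 lists, whose names give an adjusted p threshold of 0.15, whereas the methods name a stricter one. Input and CoP-seq libraries (8 samples) were not analysed here. No column was left unused, and depth is unknown.

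Starts were converted to count from 1. Genes came from GENCODE 44, and a region belonged to a gene when its centre lay between the gene ends. The TSS was the 5′ end of the gene. Neighbours were all protein-coding genes with a TSS within 500 kb of a lost region. Those named were the nearest 3 per locus, those with a listed region at the TSS and those in the gene lists of the study, together with members of the pathway lists that held a listed region. ENSG00000258837 and ENSG00000257429, as well as COL4A2 and VAC14, were named after their values were seen. Sequences were read with pysam 0.24.0, and promoters of 250 bases came from RefSeq, where 4 of 5 genes sought were matched. Motif search was tested on simulated sequences with planted motifs. The joining of regions, distances and base composition were checked on small set examples, whereas the assignment of regions to genes was not tested. The members and lists were chosen with earlier results of these data known. No test was made, because the genes were selected on the counts described. One of the gene lists examined is not reported here.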

Additional observations from a re-analysis of the deposited data

How the results depend on the processing

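Of 34 alternative settings tried, 22 left the value within 1.5 times the reported count or, for a share, within its Wilson 95% interval. That interval treats regions as independent, which regions of one locus are not, so it served only as a cut-off for change. The number of lost regions in the 3 bodies, 34, fell to 22 when regions within 1000 bp of each other were merged. At RAD18 the count of 10 became 6 with abutting regions joined, 6 with regions within 1000 bp merged and 5 with the ends of the MANE transcript, and at PTPRQ it became 6 with regions within 1000 bp merged. Fewer, wider units and shorter gene ends give these changes by construction. The TEAD share of 78.4% became 40.5% with the long form and 56.8% in the central 1000 bp, where all lost regions had 57.3% and all gained regions 42.9%. The count of 22 neighbours became 8 within 250 kb and 50 within 1000 kb. The single neighbour with a lost region at the TSS became 2 with the TSSs of all transcripts, when ACTN1 was added, and 4 within 10000 bp. The single neighbour with a gained region at the TSS became 5 within 10000 bp. At this distance some neighbours shared a region, and the share of all protein-coding genes was not computed. The start of the MANE transcript of the host, chosen after seeing the data, lowered the number of regions over 100 kb from every TSS from 23 to 21.

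No paired analysis was possible because neither list carries a measurement for single libraries. Leaving out a replicate, a stricter threshold and the share of repeats were not run, since the lists hold no replicate value or p-value and the genome used does not mark repeats.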
